A study of Mus musculus with 24 samples.

Results

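Inflammatory signalling genes were followed in TM3 cells, a line of mouse Leydig cells (the testosterone-producing cells of the testis), after sham treatment or a nanosecond pulsed electric field (nsPEF). The group holds 9 genes: the chemokines Cxcl1, Ccl2 and Ccl7, the cytokines Il6 and Lif, the NF-kB feedback genes Nfkbia, Nfkbiz and Tnfaip3, and the prostaglandin enzyme gene Ptgs2. The rule lists them by name and uses no measured value, and their probes were found through the RefSeq transcript each probe was designed for, which gave 11 probes of the 56605 on the array and 9 of its 23787 named genes. Il6 and Nfkbiz had 2 probes each. The probe with the higher mean stands for the gene, and the other is called the second probe.

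From 0 h to 4 h in sham cells 7 of the 9 genes passed the test, 3 higher and 4 lower, where 29.4% of all tested probes were higher and 29.7% lower, so that change over time was common among the probes at large. Ptgs2 and Tnfaip3 were highest at 4 h and fell 4.13-fold and 3.63-fold from 4 h to 24 h in sham cells, Il6 followed with a 1.83-fold fall, and Ccl2 rose 1.56-fold over the same hours. Between nsPEF and sham 0 of 9 passed at 0, 4 and 24 h alike. Of all tested probes, 0.0716%, 1.71% and 2.64% passed as higher at these times and 0.0557%, 1.60% and 2.18% as lower. Calls were therefore rare among the probes at large. Among the probes standing for the genes, Il6 and Nfkbiz at 24 h had the lowest adjusted p values, 0.0526 and 0.0528 (limma, threshold 0.05). Their log2 differences of nsPEF minus sham were −0.39 and −0.28. Whether these 2 passed depended on the processing. The second Il6 probe passed at 24 h, at −0.40 (adjusted p = 0.0298), a call that was lost without some single arrays.

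Cells were washed, strained, suspended in cuvettes and either given 80 pulses of 60 ns at 14 kV/cm (E, nsPEF) or taken through the same handling without pulses (S, sham). RNA was collected at 0, 4 and 24 h from 4 biological replicates a group, giving the groups S0, E0, S4, E4, S24 and E24 and 24 one-colour Agilent arrays. Each slide carried the 8 arrays of 1 time point, which means that an effect of time cannot be told apart from one of the slide. Sham arrays filled the first row and nsPEF arrays the second row of every slide, and treatment cannot be told apart from that position. All groups are 1 cell line, with the same medium and no other agent or genotype. In RNA from whole cultures, fewer cells making a transcript and less of it per cell cannot be told apart.

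NF-kB is a family of dimeric transcription factors that inhibitors of the IkB kind hold in the cytoplasm until cytokines, microbial products or stress lead to the destruction of the inhibitor. The freed dimer binds the short kB motif and switches on chemokines that call in neutrophils and monocytes, cytokines such as interleukin 6, and its own brakes, among them Nfkbia and Tnfaip3. In the testis, inflammatory cytokines are known to lower the steroid output of Leydig cells, and prostaglandins made through Ptgs2 act on them too.

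To show where the motif lies, the bases before the annotated start of 6 members are printed (RefSeq, GRCm38.p6), those for which the promoter table holds a window. Capitals mark matches to the kB consensus of 10 bases on either strand, and overlapping matches on both strands are merged. Each run has 250 bases, reads 5′ to 3′ on the strand of its gene and ends at the base before the start. The windows lie at chr5:90890995-90891244 (Cxcl1, plus strand), chr5:30012864-30013113 (Il6, plus), chr11:4257318-4257567 (Lif, plus), chr12:55492648-55492897 (Nfkbia, minus), chr10:19015411-19015660 (Tnfaip3, minus) and chr1:150099781-150100030 (Ptgs2, plus).
Cxcl1: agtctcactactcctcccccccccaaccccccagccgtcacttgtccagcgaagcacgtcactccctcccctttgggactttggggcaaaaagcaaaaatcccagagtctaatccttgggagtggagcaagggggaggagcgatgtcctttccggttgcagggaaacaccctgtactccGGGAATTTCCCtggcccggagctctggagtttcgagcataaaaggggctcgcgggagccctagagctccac
Il6: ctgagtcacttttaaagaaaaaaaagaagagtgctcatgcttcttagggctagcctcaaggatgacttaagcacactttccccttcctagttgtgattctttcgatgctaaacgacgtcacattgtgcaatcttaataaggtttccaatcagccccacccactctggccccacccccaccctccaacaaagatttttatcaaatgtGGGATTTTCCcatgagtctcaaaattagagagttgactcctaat
Lif: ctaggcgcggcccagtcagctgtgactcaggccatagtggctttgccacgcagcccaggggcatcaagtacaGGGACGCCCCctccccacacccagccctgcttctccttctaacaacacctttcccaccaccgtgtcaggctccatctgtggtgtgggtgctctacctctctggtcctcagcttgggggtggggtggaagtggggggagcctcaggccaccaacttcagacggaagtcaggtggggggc
Nfkbia: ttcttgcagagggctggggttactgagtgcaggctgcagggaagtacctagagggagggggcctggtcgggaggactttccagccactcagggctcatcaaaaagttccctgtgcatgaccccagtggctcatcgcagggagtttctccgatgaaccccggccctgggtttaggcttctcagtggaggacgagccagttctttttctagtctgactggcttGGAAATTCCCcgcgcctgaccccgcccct
Tnfaip3: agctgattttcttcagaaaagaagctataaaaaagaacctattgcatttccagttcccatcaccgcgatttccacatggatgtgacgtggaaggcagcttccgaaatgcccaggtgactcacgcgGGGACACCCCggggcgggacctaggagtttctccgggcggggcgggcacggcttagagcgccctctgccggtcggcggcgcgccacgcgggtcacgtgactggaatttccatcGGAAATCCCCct
Ptgs2: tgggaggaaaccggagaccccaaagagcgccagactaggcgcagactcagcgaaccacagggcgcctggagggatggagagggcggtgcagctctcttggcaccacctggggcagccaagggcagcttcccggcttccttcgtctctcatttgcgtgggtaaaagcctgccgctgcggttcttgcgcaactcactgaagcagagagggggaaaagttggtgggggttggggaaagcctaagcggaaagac

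Of the 6 genes, 5 held at least 1 match in the 300 bases from 250 before to 50 after the start, against 8.46% of the 32851 promoter windows in the table. Counting the base before the start as −1, the Cxcl1 match covered −71 to −61 over both strands, the Il6 match −44 to −35, and the Nfkbia match, on the opposite strand, −29 to −20. Tnfaip3 matched on both strands at −125 to −116 and on the opposite strand at −12 to −3, and a further Tnfaip3 window in the table had 0 matches. In Lif the letters from −178 to −169 matched on both strands. In Ptgs2 these letters were not found in this window, from which nothing about NF-kB at Ptgs2 follows. A match is a description of the letters and not a measured binding site, and the genes were picked as known NF-kB targets.

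Values are log2 processed signals minus the 75th percentile of the same array, so 0 is the signal that 1 in 4 probes exceed. They compare 1 probe across arrays and not 1 probe with another. All 11 probes were well above background on all 24 arrays and 0 of their spots were saturated. Over the arrays, the 75th percentile ranged from 202 to 533 signal units and the share of probes well above background from 51.2% to 62.1%. That share was lower on nsPEF arrays at every time point, with group means of 53.9% to 55.3% after nsPEF and 58.8% to 59.9% in sham, and its part in the comparisons of nsPEF with sham was not tested. Markers of other testis cells were read on the same arrays. Of 7 Leydig markers, Cyp17a1, Star and Nr5a1 were well above background on all arrays, while Cyp11a1, Hsd3b1, Hsd17b3 and Lhcgr were so on 0 of 24. Of 8 macrophage markers, Cd14, Cd68, Csf1r and Itgam were well above background on all arrays, while the leukocyte marker Ptprc and the macrophage marker Adgre1 were so on 1 array each, Aif1 on 2 and Lyz2 on 4, of which 3 were E4 arrays. The summed signal of the 8 macrophage markers, in multiples of the 75th percentile, ranged from 15.0 to 18.6 over the arrays at 0 h, 11.8 to 16.2 at 4 h and 10.5 to 12.3 at 24 h, so it moved with time, and its part in the time courses was not tested. These markers did not move alike. From S0 to S4 the mean of Csf1r rose from 0.50 to 2.15, while Itgam, the highest, fell from 3.34 to 2.73. Cd14 fell from 1.27 to 0.68 and Cd68 from 0.83 to −0.078. The 4 Sertoli markers summed to 30.4 to 37.1 at 0 h, 16.0 to 22.6 at 4 h and 22.3 to 30.5 at 24 h, and the 3 peritubular myoid markers to 28.7 to 36.3, 46.3 to 58.3 and 28.0 to 33.3, so both moved with time as well. The Sertoli sum was mostly Wt1, with sham means of 5.07, 4.29 and 4.86 at 0, 4 and 24 h. Sox9 fell throughout (−0.12, −1.33 and −2.94), and Amh and Fshr were well above background on at most 1 array of a group. The myoid sum was mostly Acta2 (5.00, 5.72 and 4.85 in sham). Cnn1 was far lower (−1.70, −0.36 and −2.63), and Myh11 was below background on some arrays. Of 4 endothelial markers Pecam1 alone was well above background, and Cdh5, Kdr and Tek were so on no array. Of 5 tested macrophage markers, 1 passed as lower after nsPEF at 0 h and 1 as higher at 4 h. Of 3 myoid markers, 1 passed as higher at 0 h and 1 at 24 h. Of all tested probes, 0.0557% were lower at 0 h, and 0.0716%, 1.71% and 2.64% higher at 0, 4 and 24 h. No tested Leydig, Sertoli or endothelial marker passed. The part of these markers in the comparisons of nsPEF with sham was not tested.

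**Figure D1:**
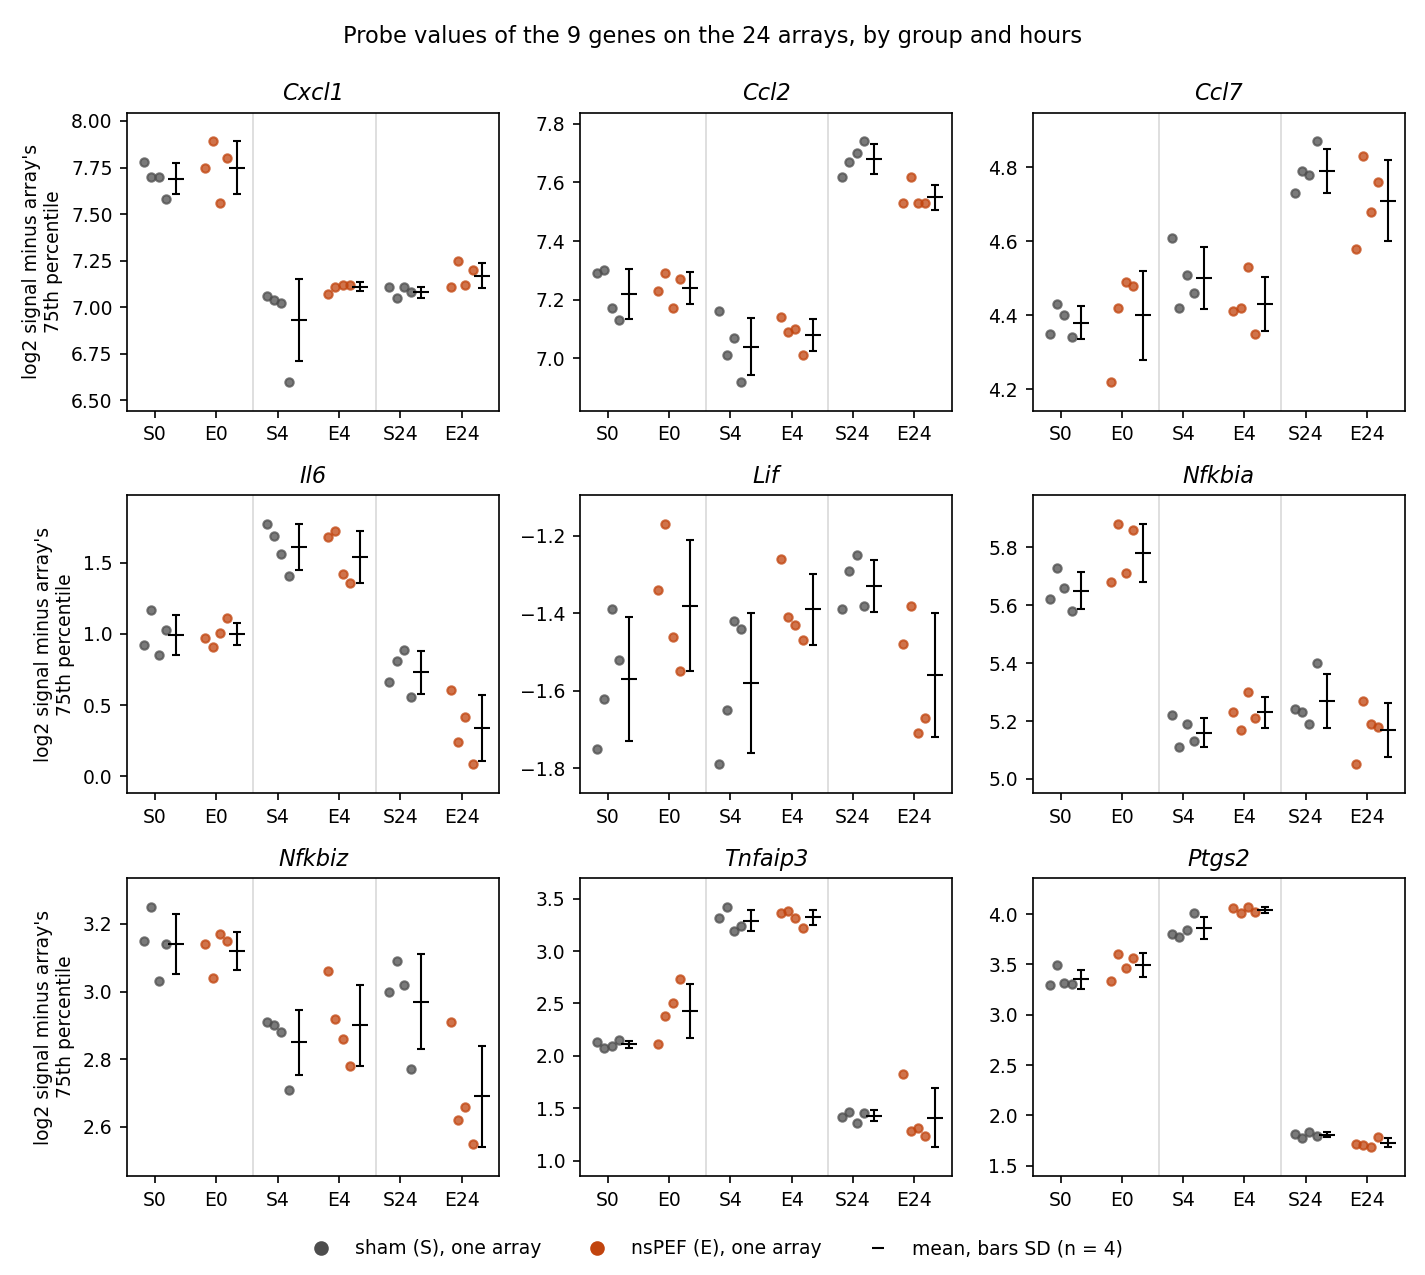
Probe values of the 9 genes on each of the 24 arrays. The y axis is the log2 processed signal minus the array's 75th percentile (a scale of its own in each panel), the x axis gives sham (S) and nsPEF (E) at 0, 4 and 24 h, points are arrays, and black marks are the mean and SD of 4. Ptgs2, Tnfaip3 and Il6 were highest at 4 h, and in most panels sham and nsPEF points of a time point overlap.

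Cxcl1 (chr5:90891245-90893121, GRCm38.p6) encodes a chemokine that attracts neutrophils. Its values were 7.78, 7.70, 7.70 and 7.58 on the S0 arrays and 7.75, 7.89, 7.56 and 7.80 on the E0 arrays. At 4 h they were 7.06, 7.04, 7.02 and 6.60 in sham and 7.07, 7.11, 7.12 and 7.12 after nsPEF. At 24 h they were 7.11, 7.05, 7.11 and 7.08 in sham and 7.11, 7.25, 7.12 and 7.20 after nsPEF. All 0 h arrays lay above all later arrays, while the 4 h and 24 h values ran into each other, and replicate 4 of S4 lay apart from the other 3. From 0 h to 4 h Cxcl1 fell by 0.76 in sham (SE 0.083, 1.70-fold, limma adjusted p = 1.1e-07) and by 0.64 after nsPEF (1.56-fold, adjusted p = 1.2e-06). At 24 h it remained lower than at 0 h, by 0.60 in sham (adjusted p = 1.1e-05), a difference that scaling on the spike-in RNAs turned to +0.096 (adjusted p = 0.388), and by 0.58 after nsPEF (adjusted p = 1.6e-05), which that scaling took to −0.10. The step from 4 h to 24 h in sham, +0.16, missed the threshold (adjusted p = 0.113). It passed with quantile normalization (0.29), the percentile over probes detected on all arrays (0.32), centring by array row (0.19) and spike-in scaling (0.81).

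Scaling matters for every comparison with the 24 h arrays. With the added spike-in RNAs as the reference, the median difference of all tested probes was 0.70 from 0 h to 24 h in sham and 0.54 after nsPEF, 0.66 and 0.37 from 4 h to 24 h, 0.045 and 0.17 from 0 h to 4 h, and 0.13, 0.19 and −0.043 between nsPEF and sham at 0, 4 and 24 h. With the percentile taken over probes detected on all arrays it was −0.12 from 0 h to 4 h and 0.18 from 4 h to 24 h in sham. On the 75th percentile scale used here, these medians lay between −0.029 and 0.091. A change is therefore a change relative to the bulk of the probes. Spike-in scaling shifts all probes of an array by the same amount. Relative to the median on that scale, the differences from 0 h to 24 h in sham are therefore those of the 75th percentile scale again. They were −0.60 for Cxcl1, −0.38 for Nfkbia, −0.68 for Tnfaip3 and −1.54 for Ptgs2, and are no separate check.

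Ccl2 (chr11:82035577-82037452), which encodes the monocyte attractant also called MCP-1, ran the other way. Its values were 7.29, 7.30, 7.17 and 7.13 in S0 and 7.23, 7.29, 7.17 and 7.27 in E0. At 4 h they stood at 7.16, 7.01, 7.07 and 6.92 in sham and 7.14, 7.09, 7.10 and 7.01 after nsPEF. At 24 h they reached 7.62, 7.67, 7.70 and 7.74 in sham and 7.53, 7.62, 7.53 and 7.53 after nsPEF. All 24 h arrays were above all earlier arrays. From 4 h to 24 h Ccl2 rose by 0.64 in sham (SE 0.053, 1.56-fold, adjusted p = 2.3e-09) and by 0.47 after nsPEF (1.38-fold, adjusted p = 2.2e-07). The dip from 0 h to 4 h was small, at −0.18 in sham (adjusted p = 0.00574) and −0.16 after nsPEF (adjusted p = 0.0152), and its call was lost in sham under quantile normalization (−0.09, adjusted p = 0.192) and in a fit of the 8 arrays alone (adjusted p = 0.0597), after nsPEF without replicate 4 of E4 (−0.13, adjusted p = 0.0543), and in both on the spike-in scale.

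Ccl7 (chr11:82045712-82047525), a neighbour of Ccl2 that encodes a related monocyte attractant, did not dip at 4 h. Group means were 4.38 ± 0.044 in S0, 4.40 ± 0.12 in E0, 4.50 ± 0.084 in S4, 4.43 ± 0.072 in E4, 4.79 ± 0.059 in S24 and 4.71 ± 0.11 in E24 (SD, n = 4). Ccl7 rose by 0.41 from 0 h to 24 h in sham (SE 0.064, adjusted p = 4.3e-05) and by 0.31 after nsPEF (adjusted p = 6.8e-04), with no overlap between those groups in either treatment. The difference from 0 h to 4 h was 0.12 in sham (95% interval −0.019 to 0.25, adjusted p = 0.131) and 0.023 after nsPEF (−0.11 to 0.16, adjusted p = 0.776), neither past the threshold.

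Il6 (chr5:30013114-30019975), which encodes interleukin 6, gave 0.92, 1.17, 0.85 and 1.03 in S0 and 0.97, 0.91, 1.01 and 1.11 in E0. At 4 h the values were 1.77, 1.69, 1.56 and 1.41 in sham and 1.68, 1.72, 1.42 and 1.36 after nsPEF. At 24 h they were 0.66, 0.81, 0.89 and 0.56 in sham and 0.61, 0.24, 0.42 and 0.084 after nsPEF. The 4 h arrays lay above all others, and the nsPEF arrays at 24 h were the lowest group, with replicate 1 of E24 inside the sham range. Il6 rose by 0.61 from 0 h to 4 h in sham (SE 0.11, 1.53-fold, adjusted p = 9.6e-05) and by 0.54 after nsPEF (adjusted p = 3.3e-04). It then fell by 0.88 in sham (1.83-fold, adjusted p = 1.3e-06; −0.23 and adjusted p = 0.155 on the spike-in scale) and by 1.20 after nsPEF (2.30-fold, adjusted p = 1.6e-08). The second Il6 probe moved alike, with a rise of 0.61 and a difference of −0.77 in sham over the same steps. From 0 h to 24 h the first probe gave −0.26 in sham (adjusted p = 0.0764, not past the threshold, and +0.44 on the spike-in scale) and −0.66 after nsPEF (adjusted p = 1.1e-04, −0.19 and adjusted p = 0.245 on the spike-in scale).

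Lif (chr11:4257568-4272514), a cytokine of the interleukin 6 family best known for keeping mouse embryonic stem cells undifferentiated, showed small differences between groups. Its group means ran from −1.58 ± 0.18 in S4 to −1.33 ± 0.067 in S24 (SD, n = 4), and in the order of the 6 means every neighbouring pair overlapped. Only the step from 4 h to 24 h in sham passed the test, at +0.25 (SE 0.10, adjusted p = 0.0405), and it did not after leaving out replicate 1 or 2 of S4 or replicate 2 or 3 of S24 (adjusted p from 0.0805 to 0.156) or under 5 of 16 other settings. The difference from 0 h to 24 h in sham, +0.24 with an adjusted p of 0.0660, passed without replicate 3 of S0 (adjusted p = 0.0334).

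Nfkbia (chr12:55489409-55492647) encodes IkBα, the inhibitor that NF-kB itself induces. Its values were 5.62, 5.73, 5.66 and 5.58 in S0 and 5.68, 5.88, 5.71 and 5.86 in E0. At 4 h they were 5.22, 5.11, 5.19 and 5.13 in sham and 5.23, 5.17, 5.30 and 5.21 after nsPEF. At 24 h they were 5.24, 5.23, 5.19 and 5.40 in sham and 5.05, 5.27, 5.19 and 5.18 after nsPEF. As with Cxcl1, the 0 h arrays were above all later ones and the 4 h and 24 h arrays overlapped. Nfkbia fell by 0.48 over the first 4 h in sham (1.40-fold, adjusted p = 6.3e-07) and by 0.56 after nsPEF (1.47-fold, adjusted p = 8.6e-08). Its step from 4 h to 24 h in sham, +0.10, missed the threshold (adjusted p = 0.149). That step passed with quantile normalization (0.36), the percentile over probes detected on all arrays (0.27), centring by array row (0.15) and spike-in scaling (0.75). From 0 h to 24 h Nfkbia changed by −0.38 in sham (adjusted p = 5.0e-05), which the spike-in scale turned to +0.32 (adjusted p = 0.00156), and by −0.61 after nsPEF (adjusted p = 1.2e-07, −0.14 and adjusted p = 0.142 on the spike-in scale).

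Nfkbiz (chr16:55811375-55838954) encodes the nuclear protein IkBζ, which helps NF-kB switch on a subset of its targets, Il6 among them. Group means of its first probe were 3.14 ± 0.089 in S0, 3.12 ± 0.057 in E0, 2.85 ± 0.096 in S4, 2.90 ± 0.12 in E4, 2.97 ± 0.14 in S24 and 2.69 ± 0.15 in E24 (SD, n = 4). The step to 4 h was −0.29 in sham (adjusted p = 0.00439, and 0.0882 on the spike-in scale) and −0.22 after nsPEF (adjusted p = 0.0261), the latter lost without replicate 3 or 4 of E0 or of E4 (adjusted p from 0.0528 to 0.0882). A further fall by 0.22 from 4 h to 24 h after nsPEF (adjusted p = 0.0283) was lost without replicate 1 or 2 of E4 or replicate 2, 3 or 4 of E24 (adjusted p from 0.0539 to 0.107), and the spike-in scale turned it to +0.18. The 2 probes parted at 24 h in sham, where the first gave −0.18 against 0 h (adjusted p = 0.0999) and the second −0.61 (adjusted p = 2.0e-05), and on the spike-in scale these became +0.52 and +0.093. After nsPEF both were lower at 24 h than at 0 h, with differences of −0.44 and −0.76 (adjusted p = 2.5e-04 and 1.1e-06), the first of which the spike-in scale turned to +0.037.

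Tnfaip3 (chr10:19000910-19015410) encodes A20, an enzyme that edits ubiquitin chains and shuts NF-kB signalling down. Its values were 2.13, 2.08, 2.09 and 2.15 in S0 and 2.11, 2.38, 2.50 and 2.73 in E0. At 4 h they were 3.31, 3.42, 3.19 and 3.24 in sham and 3.36, 3.38, 3.31 and 3.22 after nsPEF. At 24 h they were 1.42, 1.47, 1.36 and 1.46 in sham and 1.83, 1.28, 1.31 and 1.24 after nsPEF. The 3 time points did not overlap, and the nsPEF arrays were more spread than the sham arrays at 0 h and 24 h. Tnfaip3 rose by 1.18 from 0 h to 4 h in sham (SE 0.12, 2.26-fold, adjusted p = 2.0e-08) and by 0.89 after nsPEF (1.85-fold, adjusted p = 1.2e-06). It then fell by 1.86 in sham (3.63-fold, adjusted p = 2.5e-11) and by 1.90 after nsPEF (3.74-fold, adjusted p = 1.9e-11). Its difference at 24 h against 0 h was −0.68 in sham (adjusted p = 1.0e-04), which the spike-in scale took to +0.017 (adjusted p = 0.920), and −1.02 after nsPEF (adjusted p = 7.4e-07, −0.54 on that scale).

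Ptgs2 (chr1:150100031-150108234) encodes cyclooxygenase 2, the inducible enzyme that turns arachidonic acid into the precursor of the prostaglandins. Its values were 3.29, 3.49, 3.31 and 3.30 in S0 and 3.33, 3.60, 3.46 and 3.56 in E0. At 4 h they were 3.80, 3.77, 3.84 and 4.01 in sham and 4.06, 4.01, 4.07 and 4.02 after nsPEF. At 24 h they were 1.82, 1.78, 1.84 and 1.80 in sham and 1.72, 1.71, 1.69 and 1.79 after nsPEF. The time points stood apart, with the 24 h arrays far below the others. Ptgs2 rose by 0.51 from 0 h to 4 h in sham (SE 0.061, 1.42-fold, adjusted p = 4.0e-07) and by 0.55 after nsPEF (1.47-fold, adjusted p = 1.1e-07). It then fell by 2.04 in sham (4.13-fold, adjusted p = 6.2e-16) and by 2.32 after nsPEF (4.98-fold, adjusted p = 1.3e-16). Ptgs2 fell by 1.54 from 0 h to 24 h in sham (2.90-fold, adjusted p = 2.1e-13), and 0.897% of the tested probes fell further. The direction of these Ptgs2 changes was kept on the spike-in scale, where the steps from 4 h to 24 h were −1.40 and −1.92.

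**Figure D2:**
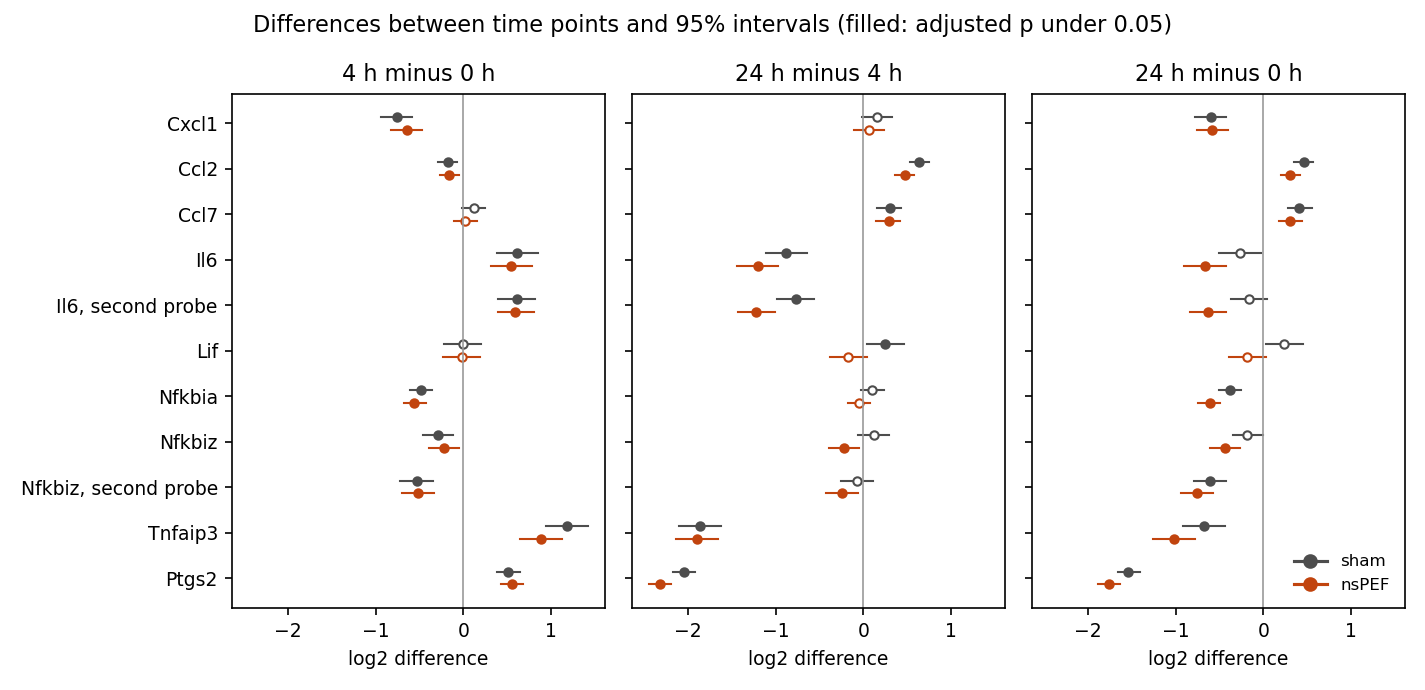
Differences between time points for the 11 probes, in sham (grey) and nsPEF (orange). Points are log2 differences on the 75th percentile scale, lines are 95% intervals from limma, and filled points passed an adjusted p of 0.05. Ptgs2, Tnfaip3 and Il6 lie right of 0 from 0 h to 4 h and left of 0 from 4 h to 24 h, and of the differences against 0 h at 24 h in sham, those of Cxcl1, Il6, Nfkbia, Nfkbiz and Tnfaip3 (both probes where there are 2) changed sign on the spike-in scale.

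Counted over the 9 genes, 3 rose and 4 fell from 0 h to 4 h in sham, where 29.4% of all 37684 tested probes rose and 29.7% fell. After nsPEF it was again 3 up and 4 down, beside 33.5% and 27.8% of all probes. From 4 h to 24 h in sham 3 rose and 3 fell (27.8% and 29.9% of all probes), and after nsPEF 2 rose and 4 fell (27.5% and 29.0%). From 0 h to 24 h in sham 2 rose and 4 fell (16.9% and 19.7%), and after nsPEF 2 rose and 6 fell (23.9% and 18.3%). The 2 that rose in both treatments were Ccl2 and Ccl7. These splits depended on the scaling. With the spike-in RNAs as the reference, 6 rose and 1 fell from 0 h to 24 h in sham, where 74.9% of all tested probes rose and 1.46% fell, and 3 rose and 2 fell after nsPEF (64.4% and 3.49%). On that scale the split from 4 h to 24 h was 6 up and 2 down in sham (64.1% and 7.64%) and 4 and 3 after nsPEF (48.8% and 12.1%), and from 0 h to 4 h it was 3 and 2 in both treatments (30.1% and 25.5% in sham, 35.9% and 23.2% after nsPEF). From 4 h to 24 h in sham, quantile normalization gave 5 up and 3 down, and the percentile over probes detected on all arrays 6 and 3. After nsPEF these settings gave 4 and 3, and 3 and 3. On the 75th percentile scale the median difference of the members from 0 h to 24 h was −0.26 in sham and −0.58 after nsPEF, against −0.00096 and 0.062 over all tested probes. The sham and nsPEF counts rest on separate arrays at each time point, and whether they differ was tested only by the interaction given further on.

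At 0 h, directly after the pulses, 0 of the 9 genes passed the test between nsPEF and sham, beside 0.0716% of all tested probes higher and 0.0557% lower after nsPEF. Without adjustment, p was under 0.05 for 3 of them, Tnfaip3, Nfkbia and Ptgs2, and for 10.0% of all tested probes. Tnfaip3 gave +0.32 (95% interval 0.079 to 0.56, adjusted p = 0.300), and 3 of its E0 arrays lay above all S0 arrays. Nfkbia and Ptgs2 each differed by +0.14 (adjusted p = 0.430 and 0.426), with overlapping arrays. Over the 9 genes the intervals reached from −0.23 to 0.56.

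At 4 h 0 of 9 passed, beside 1.71% of probes higher and 1.60% lower. Ptgs2 was the nearest, with all 4 E4 arrays above the highest S4 array (before rounding) and a difference of +0.19 (95% interval 0.06 to 0.31, 1.14-fold, adjusted p = 0.0906). Without replicate 4 of S4, the one closest to the nsPEF values, the difference was 0.24 with an adjusted p of 0.0359. Leaving out any other single array did not bring Ptgs2 past the threshold. Cxcl1 also did not overlap between the groups, at +0.18 (95% interval 0.0059 to 0.35, adjusted p = 0.223). Of all tested probes, 14.0% did not overlap at 4 h. Unadjusted p was under 0.05 for these 2 genes and for 21.0% of all tested probes, and the intervals of the 9 genes reached from −0.30 to 0.39. On the spike-in scale 4 genes passed as higher (Cxcl1, Lif, Nfkbia and Ptgs2), beside 15.1% of all tested probes higher and 0.191% lower. The median of all probes on that scale was 0.19. Relative to that median these genes stood at 0.18, 0.18, 0.062 and 0.18, which nearly repeats their reported differences and is no separate check.

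At 24 h 0 of 9 passed, beside 2.64% of probes higher and 2.18% lower, and unadjusted p was under 0.05 for 4 of them, Il6, Nfkbiz, Ccl2 and Lif, and for 22.0% of all tested probes. Il6 differed by −0.39 (SE 0.11, 95% interval −0.63 to −0.15, 1.31-fold, adjusted p = 0.0526). Its second probe gave −0.81, −0.95, −0.75 and −1.08 in E24 against −0.53, −0.43, −0.44 and −0.60 in S24, which do not overlap, and passed at −0.40 (SE 0.1, adjusted p = 0.0298). That call of the second probe was lost without replicate 1, 2 or 3 of S24 or replicate 2 or 4 of E24 (adjusted p from 0.0598 to 0.106). It was also lost with normexp background correction (−0.24, adjusted p = 0.0933) and in a fit of the 8 arrays alone (adjusted p = 0.0918). Leaving out any 1 replicate number lost it too (adjusted p from 0.0636 to 0.204). Nfkbiz gave 2.91, 2.62, 2.66 and 2.55 in E24 against 3.00, 3.09, 3.02 and 2.77 in S24, a difference of −0.28 (SE 0.082, 1.22-fold, adjusted p = 0.0528). Its second probe showed −0.099 (95% interval −0.28 to 0.086, adjusted p = 0.533), so the 2 probes of Nfkbiz disagreed in size. Ccl2 stood at −0.13 (adjusted p = 0.173) and Lif at −0.23 (adjusted p = 0.180). Cxcl1 was the 1 gene whose first probe did not overlap between the groups, at +0.087 (adjusted p = 0.562), beside 14.3% of all tested probes that did not overlap.

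Il6 and Nfkbiz lay so near the threshold that other processing moved them across it. Each passed under 10 of 16 alternative settings, with Il6 at −0.46 to −0.37 (adjusted p from 0.00631 to 0.169) and Nfkbiz at −0.35 to −0.19 (adjusted p from 0.00241 to 0.189). Both passed when replicate 1 of E24 was left out, at −0.48 and −0.36 (adjusted p = 0.0127 and 0.00953), and also without replicate 4 of S4, E4 or S24. Nfkbiz alone passed without replicate 1 of E4 (adjusted p = 0.0470). The sign was negative for both genes in every one of these settings. Leaving out any other single array left both short of the threshold.

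**Figure D3:**
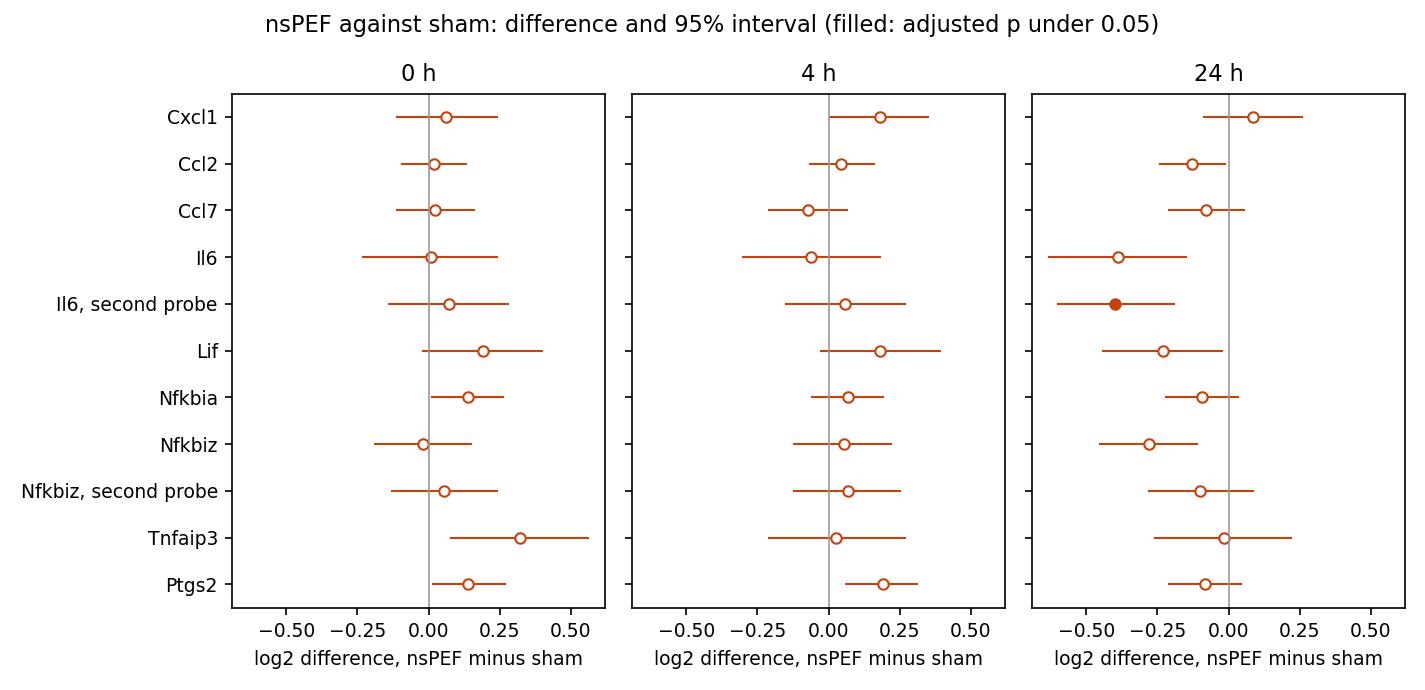
Log2 differences of nsPEF minus sham for the 11 probes at 0, 4 and 24 h. Points are differences between means of 4 arrays, lines are 95% intervals from limma, and the filled point passed an adjusted p of 0.05. Only the second Il6 probe at 24 h is filled, and the intervals of Il6 and of the first Nfkbiz probe at 24 h lie left of 0.

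Whether the nsPEF difference itself changed with time was tested by an interaction term, which passed for 0 of the 9 genes beside 0.377% of all tested probes. Unadjusted p was under 0.05 for 4 genes, Lif, Ptgs2, Nfkbiz and Nfkbia, and for 16.7% of all tested probes. For Ptgs2 the change of the difference from 0 h to 24 h was −0.22 (SE 0.086, adjusted p = 0.183), and for Lif −0.42 (SE 0.14, adjusted p = 0.175). The lowest adjusted p belonged to the second Il6 probe, at 0.136.

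The order of the group means shows the same in another way. Ptgs2 ran E4, S4, E0, S0, S24 and E24 from highest to lowest, and Tnfaip3 had the same order. Of the Ptgs2 neighbours, E4 and S4, S4 and E0, and S0 and S24 did not overlap, while E0 and S0, and S24 and E24, did. Cxcl1 and Nfkbia both put E0 and S0 on top with a gap to the 4 later groups, which overlapped with their neighbours.

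Across the 24 arrays, Ptgs2 went with Tnfaip3 (Pearson r = 0.92) and Il6 with Tnfaip3 (r = 0.93), Cxcl1 with Nfkbia (r = 0.92), and Ccl2 against Ptgs2 (r = −0.94). These arrays fall into 3 time points on 3 slides, so the coefficients describe mostly the steps between time points. Among 14180 other named genes, Gadd45b, Id4 and Osgin1 were most like Ptgs2 (r = 0.990 to 0.985), and Hbegf, Col5a1 and Tiparp most like Tnfaip3 (r = 0.986 to 0.983). Sipa1l2, Phldb2 and Fstl1 were most like Il6 (r = 0.980 to 0.972), Gng11, Aldh1a1 and 2610318N02Rik most like Cxcl1 (r = 0.964 to 0.950), and Ier5l, Id3 and Bambi most like Nfkbia (r = 0.959 to 0.956). Ccl2 was nearest to H3c8, Ggnbp2os and Spp1 (r = 0.958 to 0.952), Nfkbiz to Serinc3, Etfa and Met (r = 0.940 to 0.924) and Ccl7 to Asph, Colca2 and Cfap69 (r = 0.897 to 0.885). Lif had no close match, with Slmap, Gm21083 and 4930503L19Rik at r = 0.594 to 0.554.

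The pathway around the members was read from lists of genes by role. Calls of these list genes were not followed under the alternative settings or with arrays left out. Of 35 genes of the NF-kB core (Rel proteins, inhibitors, kinases and adaptors, all tested), 20 rose and 6 fell from 0 h to 4 h in sham, with a median of +0.27 against −0.006 over all probes, and 7 rose and 19 fell from 4 h to 24 h, with a median of −0.28 against 0.012. Of all tested probes, 29.4% rose and 29.7% fell over the first step, and 27.8% and 29.9% over the second. Nfkb1, which encodes the precursor of the p50 subunit, rose by 1.12 at 4 h (2.18-fold, adjusted p = 4.2e-11) and differed by −1.12 between 4 h and 24 h. Map3k7, which encodes the kinase TAK1 upstream of the IkB kinases, rose by 1.18 (adjusted p = 5.2e-12). Birc2, which encodes the ubiquitin ligase cIAP1, fell by 1.17 at 4 h (adjusted p = 2.5e-09) and rose by 1.12 by 24 h. On the spike-in scale the median of all probes from 4 h to 24 h in sham was 0.66.

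Of 32 other reported NF-kB targets on the array, 27 were tested, all of them well above background on every array. From 0 h to 4 h in sham 11 rose and 10 fell (median 0.082), beside 29.4% and 29.7% of all probes. From 4 h to 24 h 5 rose and 18 fell (median −0.42), beside 27.8% and 29.9% of all probes. Among the changes at 4 h were those of Vegfc, a growth factor for lymph vessels (+1.55, 2.92-fold, adjusted p = 5.7e-15), and Tlr2, a receptor for bacterial lipoproteins (−1.01, adjusted p = 2.5e-09). Between nsPEF and sham at 24 h, C3, Lcn2 and Mmp13, which encode a complement protein, lipocalin 2 and a collagenase, were lower after nsPEF, with differences of −0.31, −0.37 and −0.45 (adjusted p = 0.0153, 0.0223 and 0.0223), and the list's median was −0.068 against 0.023 over all probes.

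Among 22 other chemokines and colony-stimulating factors tested, 5 rose and 9 fell from 0 h to 4 h in sham (median −0.37), beside 29.4% and 29.7% of all probes. Only 11 of the 31 on the array were well above background on all arrays. Cxcl2, a close relative of Cxcl1, was well above background on the 8 arrays of 0 h and on 0 of the 16 later ones, at least 4.51-fold lower at 4 h in sham (adjusted p = 8.5e-13) and at least 3.03-fold lower after nsPEF. Its nsPEF differences at 4 h and 24 h passed the test with both groups below background, so no fold is given. Cxcl10, an interferon-inducible attractant of T cells, fell by 3.44 from 0 h to 4 h in sham and rose by 2.73 by 24 h (adjusted p = 8.2e-18 and 5.6e-16), and at 24 h it was lower after nsPEF (−0.38, adjusted p = 0.0125). Csf3, which drives neutrophil production, rose by 2.42 at 4 h (5.36-fold, adjusted p = 3.8e-12) and then changed by −3.28. Cxcl14 passed between nsPEF and sham at 24 h (adjusted p = 0.0146), but 2 of 4 arrays were well above background in each group, so no fold is given.

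In the interleukin 6 and LIF family with its receptors and feedback genes, 25 tested, 8 rose and 14 fell from 0 h to 4 h in sham (median −0.28). The shares of all probes were 29.4% and 29.7%. Il11 rose by 2.44 (adjusted p = 1.5e-08) and Socs1, a brake on cytokine signalling, by 2.11 (adjusted p = 8.7e-15), while its relative Socs3 fell by 1.95 (adjusted p = 6.3e-17). At 24 h, 5 of the 25 were lower after nsPEF and 0 higher, beside 2.18% and 2.64% of all tested probes, with a median of −0.075 against 0.023. They were Il6st, which encodes the receptor chain gp130 shared by interleukin 6 and LIF (−0.26, adjusted p = 0.0107), Osmr (−0.26, adjusted p = 0.0264), the kinases Jak2 (−0.20, adjusted p = 0.0147) and Pim1 (−0.40, adjusted p = 0.00117), and Socs3 (−0.21, adjusted p = 0.0316). At 4 h Pias3 was lower after nsPEF (−0.26, adjusted p = 0.0281). Osm passed as higher (adjusted p = 0.0240), but 2 of 4 E4 arrays and 0 of 4 S4 arrays were well above background, so no fold is given.

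Of 23 inducing ligands and receptors tested, 8 rose and 9 fell from 0 h to 4 h in sham (median −0.066), beside 29.4% and 29.7% of all probes. Il1rl1, the receptor of interleukin 33, rose by 5.52 (45.8-fold, adjusted p = 1.5e-21), Il33 itself by 2.00 (adjusted p = 1.0e-14) and the TWEAK receptor gene Tnfrsf12a by 2.54 (adjusted p = 5.0e-17). The interleukin 1 receptor gene Il1r1 was lower after nsPEF at 24 h (−0.31, adjusted p = 0.0157). In the NF-kB core, the inhibitor gene Nfkbie was lower after nsPEF at 4 h (−0.31, adjusted p = 0.0213), and at 24 h Birc2 was lower (−0.40, adjusted p = 0.0295) and Otulin, a deubiquitinase, higher (0.21, adjusted p = 0.0446).

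Prostaglandin genes did not follow Ptgs2 as a group. Of 18 tested, 8 rose and 8 fell from 0 h to 4 h in sham (median −0.12), beside 29.4% and 29.7% of all probes. From 4 h to 24 h 8 rose and 7 fell (median −0.039), beside 27.8% and 29.9% of all probes. Ptger4, which encodes the EP4 receptor for prostaglandin E2, rose by 1.44 at 4 h (adjusted p = 6.5e-11) and differed by −1.33 between 4 h and 24 h (adjusted p = 3.0e-10). Tbxas1, the thromboxane synthase gene, was at least 1.77-fold higher at 4 h than at 0 h in sham (adjusted p = 6.1e-05), and the thromboxane receptor gene Tbxa2r was lower (−1.32, adjusted p = 4.7e-06). Between nsPEF and sham, Ptgr2, a prostaglandin reductase gene, was lower at 24 h (−0.16, adjusted p = 0.0434). Of 12 chemokine receptors tested, 3 rose and 5 fell at 4 h in sham (median −0.54), beside 29.4% and 29.7% of all probes. Among these receptors were Ccrl2 (at least 5.04-fold lower), Cxcr2 (at least 2.44-fold higher) and Ackr2 (at least 1.42-fold lower). Ccr7 was lower after nsPEF at 24 h (−0.45, adjusted p = 0.0142).

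**Figure D4:**
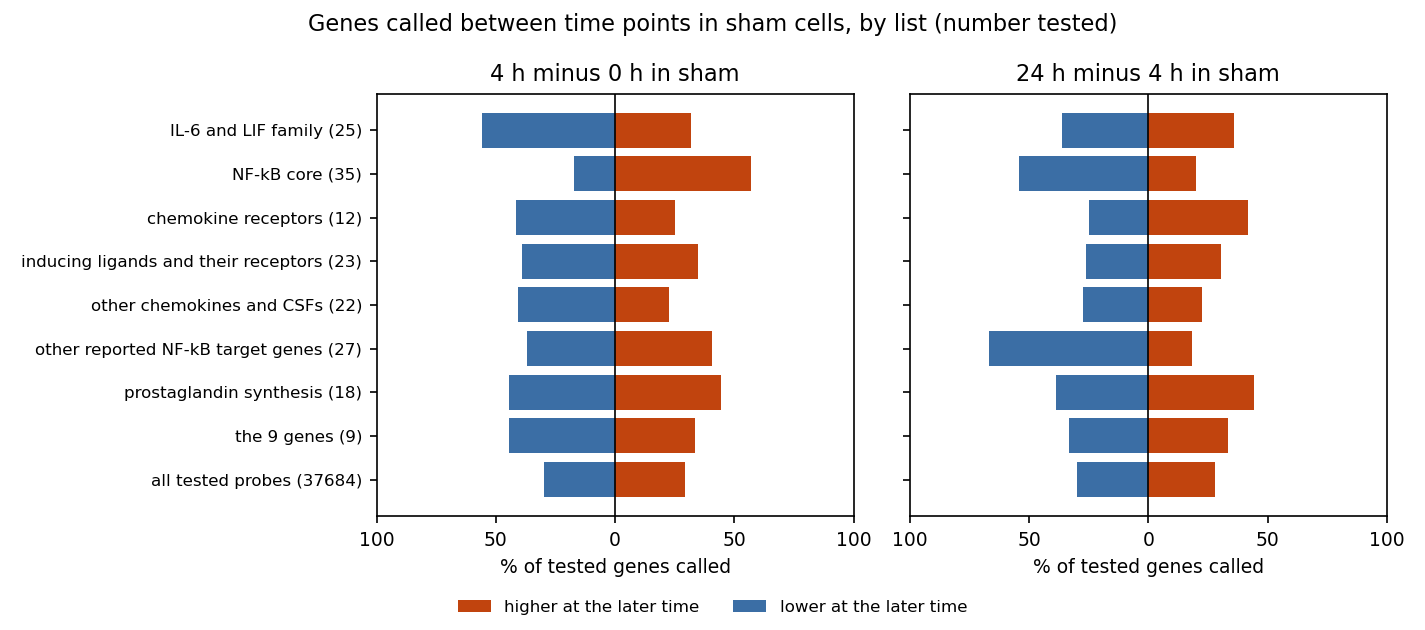
Share of tested genes called higher (orange, to the right) or lower (blue, to the left) in sham cells from 0 h to 4 h and from 4 h to 24 h, in percent, for 7 lists, the 9 members and all tested probes (number tested in brackets). In the NF-kB core list 20 of 35 rose at 4 h and 19 of 35 fell by 24 h, and among other reported targets 18 of 27 fell by 24 h. Of all tested probes, 29.4% rose at 4 h and 29.9% fell by 24 h.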

How the data were processed

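The authors labelled RNA of 24 TM3 samples with Cy3, hybridized each to an Agilent mouse array and read the scans with Feature Extraction 12.0, as their methods and the labels say. The deposited scanner text holds raw and background intensities of every spot and, used here, its processed intensity, which that software had corrected for background and spatial trend. The authors also deposited log2 values made in GeneSpring by a 75th percentile shift and a median baseline for each probe, used here as an alternative.

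Here the 59305 non-control spots were averaged to 56605 probes, leaving out spots marked as not uniform or as outliers. Values were log2 processed signal minus the array's 75th percentile over these probes. Probes well above background on at least 2 of 4 arrays of a group, 37684, were tested in R 4.3.3 with limma 3.58.1 on all 24 arrays, with a mean per group and Benjamini-Hochberg adjustment over all tested probes, two-sided, threshold 0.05. Limma stood in for the two-way analysis of variance of the authors' methods, which was run as an alternative. The members, lists, tests and alternatives were chosen with earlier results of these data known.

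Genes were named by a rule: the members, per list the up to 3 genes that changed most from 0 h to 4 h in sham and all called between nsPEF and sham, and per member the 3 genes with the highest r over the 24 arrays among genes well above background on at least 12. A gene that this rule names is not reported here. Fold bounds ("at least") set a group below background on every array to at least the lowest signal well above background on each array. Gene positions and promoters are those of RefSeq on GRCm38.p6. The number of arrays limits the precision. The fit was tested on simulated data. Alternatives were quantile, spike-in (6 probes, 210 spots) and other percentile scaling, normexp with an offset of 50, a floor, other filters, marked spots kept, the deposited log2 values, other models, a replicate block, array weights, centring by array row, the mean of a gene's probes, and leaving out each array or replicate number.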

Additional observations from a re-analysis of the deposited data

Results flagged for a closer look

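In 5 of 66 groups of 4 values (11 probes in 6 groups), 1 array lay far from the other 3, by a gap above Dixon's 95% critical value for 4 samples. Chance alone flags about 1 in 20 such groups. They were Ptgs2 on replicate 2 of S0 (3.49, the highest), Cxcl1 and Nfkbiz on replicate 4 of S4 (6.60 and 2.71, the lowest), Ccl2 on replicate 2 of E24 (7.62, the highest) and Tnfaip3 on replicate 1 of E24 (1.83, the highest).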

How the results depend on the processing

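The 9 genes gave 0 calls between nsPEF and sham at 0 h under every alternative run, and the number called between time points, in either direction, stayed within 1.5 times of that reported, except from 0 h to 24 h after nsPEF with spike-in scaling (5 genes against 8). The split into higher and lower moved more, as with spike-in scaling from 0 h to 24 h in sham (6 higher and 1 lower, against 2 and 4). At 24 h nsPEF against sham, called genes numbered 3 with quantile normalization and with array weights, 2 with the percentile over probes detected on all arrays or over spots (the latter chosen after seeing the data), a floor, no detection filter, marked spots kept or the deposited log2 values, and 1 with the plain two-way analysis of variance and with the mean of a gene's probes. With quantile normalization 2.11% of all tested probes were higher and 5.05% lower at 24 h. These shares were 3.12% and 1.82% with the percentile over detected probes, and 2.49% and 2.78% with that over spots. At 4 h called genes numbered 4 with spike-in scaling and 1 with the percentile over detected probes, a floor or array weights. Of all tested probes, 15.1% were higher and 0.191% lower at 4 h with spike-in scaling, and 2.27% and 0.634% with the percentile over detected probes. The interaction was called for 3 genes with spike-in scaling and with array weights. The share over all probes is not given for the other settings, and these counts describe the settings rather than the members. Without 1 array or 1 replicate number, the counts were 0 to 2 at 24 h, 0 to 1 at 4 h, 0 for the interaction, 6 to 7 and 5 to 7 from 0 h to 4 h in sham and after nsPEF, 6 to 7 and 8 from 0 h to 24 h, and 5 to 6 from 4 h to 24 h in both.

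Replicate numbers did not pair the arrays: deviations of same-numbered arrays correlated at −0.047 to 0.1, with 0 of 12 over 0.1. With a replicate block, 2 genes were called at 24 h nsPEF against sham, 5 against 6 from 4 h to 24 h in sham, and the other counts did not change.

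Sign changes between differences that both missed the threshold were not counted as reversals. With spike-in scaling, the difference from 0 h to 24 h in sham reversed for Cxcl1 (0.096) and Tnfaip3 (0.017), for Nfkbia (0.32) and for the second Nfkbiz probe (0.093), and uncalled negative differences became called positive ones for Il6 (0.44, second probe 0.54) and Nfkbiz (0.52). After nsPEF it reversed from 0 h to 24 h for Lif (0.29) and Nfkbiz (0.037), and from 4 h to 24 h for Nfkbia (0.34; 0.16 with quantile normalization), Nfkbiz (0.18) and its second probe (0.16). The second Nfkbiz probe from 4 h to 24 h in sham became 0.57. On that scale the median of all tested probes was up to 0.70. Because the scaling shifts all probes of an array by the same amount, taking that median off nearly returns the reported differences. It therefore cannot check their direction. The cause of the reversals was not tested. Low signals limited the lists more than the members, since all 11 member probes were well above background on every array.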
